A study of Homo sapiens with 4 samples.

Results

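The collagen genes are the family whose proteins build the fibres, networks and anchoring structures of the extracellular matrix. They were taken by name, as every probe other than controls whose gene symbol is COL, a number, A and a number, from COL1A1 to COL28A1. This gave 44 collagen genes, measured by 56 of the 34127 probes of the array, among 19740 genes that could be named. Of these, 42 collagen genes had a probe with a value on every array, against 18755 genes in all. The exceptions were COL6A1, whose only probe lay on a spot marked as an outlier on the PHA665752 array, and COL22A1, whose only probe lay on such a spot on the MET siRNA array.

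The cells were Hs746T, an established gastric carcinoma line that carries both an amplification of the receptor tyrosine kinase gene MET and a mutation that makes its transcript skip an exon. All cells grew in DMEM with heat-inactivated fetal bovine serum and were given DMSO, the MET kinase inhibitor PHA665752, sc siRNA (a scrambled control) or a single siRNA against MET, with the siRNA cells harvested 48 h after lipid-based transfection. For the array, neither the concentration of PHA665752 nor its duration is given in the sources used here. Total RNA of each condition was measured on 1 single-colour Agilent array, and all 4 arrays lie on 1 slide, so no value has an error between cultures, no test could be made, and each difference is that of a pair of arrays.

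A collagen molecule is a triple helix of 3 chains, which are either copies of the same chain or products of different genes. Fibrillar collagens such as types I and V form the ropes of connective tissue, and type IV forms the sheets of basement membranes. FACIT collagens (fibril-associated collagens with interrupted helices) decorate fibrils, type VII anchors epithelium to the stroma beneath, and transmembrane collagens such as types XIII and XVII sit in the plasma membrane. In carcinomas most fibrillar collagen is made by fibroblasts of the stroma, but carcinoma cells with mesenchymal features can also transcribe collagen genes.

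The values below are processed signals, the linear intensity of a probe after background subtraction by the scanner software. A ratio is the log2 difference of a pair of arrays after each was scaled to its 75th percentile, and a gene was called higher or lower when its ratio passed 2-fold (1 on the log2 scale). A gene was represented by its brightest probe among those with a value on every array. Where that probe was well above background on 1 array of a pair only, the ratio is a bound, and where it was well above background on neither, no ratio is given. Signals of different probes were not compared as amounts of RNA, because each probe has its own brightness. In a bulk culture, fewer cells that transcribe a gene and less RNA per cell cannot be told apart. Probes spotted 10 times gave a spot noise of 0.078 (SD of a log2 ratio), which does not cover differences between cultures.

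The arrays and labels were checked first. With MET siRNA, 61.1% of probes were well above background and 5.58% of spots were marked as outliers, while the other arrays had 67.4% to 68.2% of probes above background. The probe for MET read -0.93 with PHA665752 and -1.33 with MET siRNA on the log2 scale, and 0.032 between the control arrays. Of 10 epithelial markers, 7 were well above background on all 4 arrays, with KRT20 and GRHL2 above on none. Their summed unscaled signal lay between 82913 with PHA665752 and 132726 with DMSO, of which CLDN4 alone gave 91380 with DMSO. After scaling, 5 of the 8 epithelial markers with a ratio were higher by sign with PHA665752 and 3 lower. Their median was 0.058 beside 0.075 for all genes, and MUC1 passed 2-fold (1.70). Of the gastric markers, 5 of 7 were measured and 3 were above background on all 4 arrays. Mesenchymal markers were above background throughout in 6 of 6 measured, which did not include VIM. Of 7 fibroblast markers, PDGFRA and LUM were above background on no array, and 4 were above on all 4. The summed fibroblast signal was 12190.2 under DMSO, 12486 under PHA665752, 7181 under sc siRNA and 7168 under MET siRNA, lower on both siRNA arrays than on the other arrays, as unscaled signals. After scaling, 5 of 5 fibroblast markers with a ratio were higher by sign with PHA665752, 1 of them as a bound and 2 past 2-fold, with a median of 0.71 beside 0.075 for all genes, and with MET siRNA the median was 0.16. PDGFRB rose with PHA665752 (log2 ratio 2.11) and with MET siRNA (1.04). By sign, 3 of the 5 fibroblast markers were higher with MET siRNA and 2 lower, FAP (-0.48) and PRRX1 (-0.21). FAP also differed between the controls, a bound of 1.78 for sc siRNA over DMSO. With PHA665752, 4 of 4 muscle markers were also higher by sign (median 0.28), none past 2-fold. The 6 mesenchymal markers were split with PHA665752, 3 higher and 3 lower by sign, with a median of -0.074. TWIST1 passed 2-fold lower (-1.24), and ZEB1 read -0.73, S100A4 -0.41, ZEB2 0.59, SNAI2 0.39 and CDH2 0.26. Of 3 endothelial markers, VWF read 2.77, PECAM1 -2.39 and CDH5 -0.21 with PHA665752. The part of these markers in the collagen results was not tested.

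Collagen genes were detected on all 4 arrays less often than genes in general. By any probe, 29 collagen genes were well above background under DMSO, 27 under PHA665752, 26 under sc siRNA and 25 under MET siRNA. Of the 42 collagen genes with a probe valued on every array, 22 (52.4%) were above background on all 4 by the brightest such probe, 9 on some and 11 on none, against 69.7% above on all 4 among the 18755 genes with such a probe. Detected on all 4 were 7 of 11 fibrillar, 3 of 6 type IV, 1 of 4 type VI, 3 of 3 short chain, 4 of 9 FACIT and 2 of 4 transmembrane collagens, together with COL7A1 and COL18A1. These counts leave out COL6A1 and COL22A1. The collagens above background on no array were COL2A1, COL3A1, COL5A3 and COL11A1 among the fibrillar ones, COL4A3, COL6A5, COL6A6, COL15A1, COL19A1, COL25A1 and COL28A1. COL3A1, the partner of type I in most soft tissue fibrils, read 2.36, 2.59, 2.14 and 3.68 with DMSO, PHA665752, sc siRNA and MET siRNA, all at the background level.

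**Figure D1:**
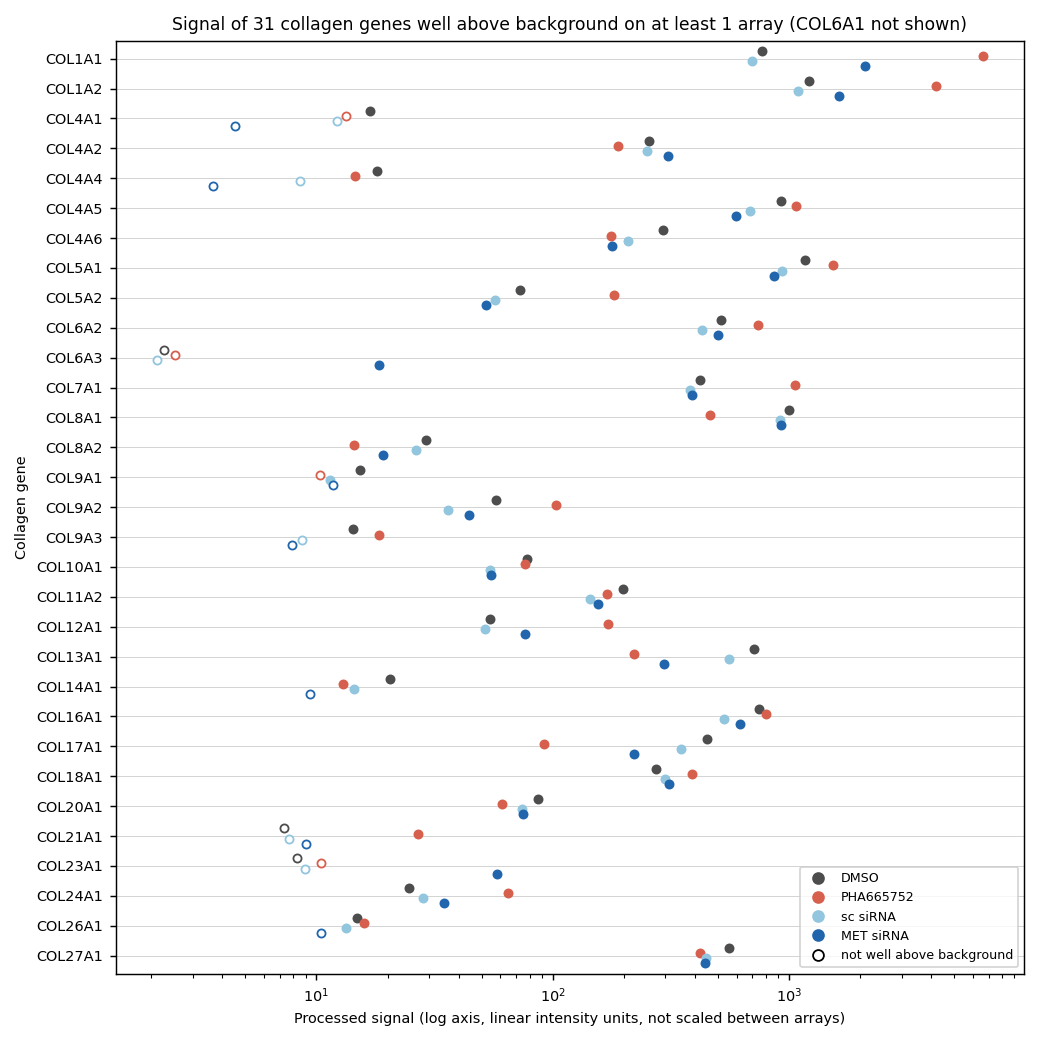
Processed signal (log axis, linear intensity, not scaled between arrays) of 31 collagen genes well above background on at least 1 array, each by its brightest probe with a value on every array, which leaves out COL6A1 and the brighter probe of COL12A1. Colours mark the 4 arrays and open circles mark signals not well above background. COL1A1 with PHA665752 (6631) stands to the right of its DMSO signal (771), and COL17A1 with PHA665752 (91.9) to the left of its DMSO signal (451).

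With PHA665752, fibrillar and FACIT collagens, the builders and decorators of fibrils, held 7 of the 8 rises and 15 of the 29 ratios, and the falls were those of the transmembrane collagens COL13A1 and COL17A1. A ratio could be taken for 29 collagen genes. Of these, 8 (27.6%) were called higher, where 13.1% of all 14322 genes were, and 2 (6.90%) were called lower, where 8.04% were. By sign alone, 16 were higher and 13 lower, and 55.2% higher stood beside 54.9% of all genes. The collagen median was 0.31 beside 0.075 for all genes, and it was -0.047 under quantile normalization (0.029 for all genes). Among the rises, that of COL21A1 is a bound on a probe that was detected with PHA665752 only. Among the 26 collagen genes detected on both arrays 7 were called higher, where 11.7% of all genes detected on both were. With normexp background correction 4 rises remained among 27 ratios, 3 of them fibrillar or FACIT, where 6.73% of all genes were called higher. The call boundary ran between COL9A2 (1.07) and COL6A2 (0.74) for rises, and between COL13A1 (-1.47) and COL8A1 (-0.90) for falls.

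MET siRNA moved few collagens past 2-fold. Of 24 collagen genes with a ratio, COL1A1 and, as a bound, COL23A1 were called higher (8.33%, where 2.04% of all 13647 genes were), and 0 were called lower (0.696% of all genes). By sign, 12 were higher and 12 lower, 50% beside 47% of all genes, and the collagen median of -0.0062 lay beside -0.017 for all genes. Between the control arrays, sc siRNA over DMSO, 0 of 28 collagen genes passed 2-fold, where 2.89% of all genes were called higher and 1.16% lower. The collagen ratios of the controls lay between -0.56 and 0.45 with a median of -0.076, and 11 of them (39.3%) were higher by sign, where 48.5% of all genes were. This control pair shares an array with each of the other pairs.

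**Figure D2:**
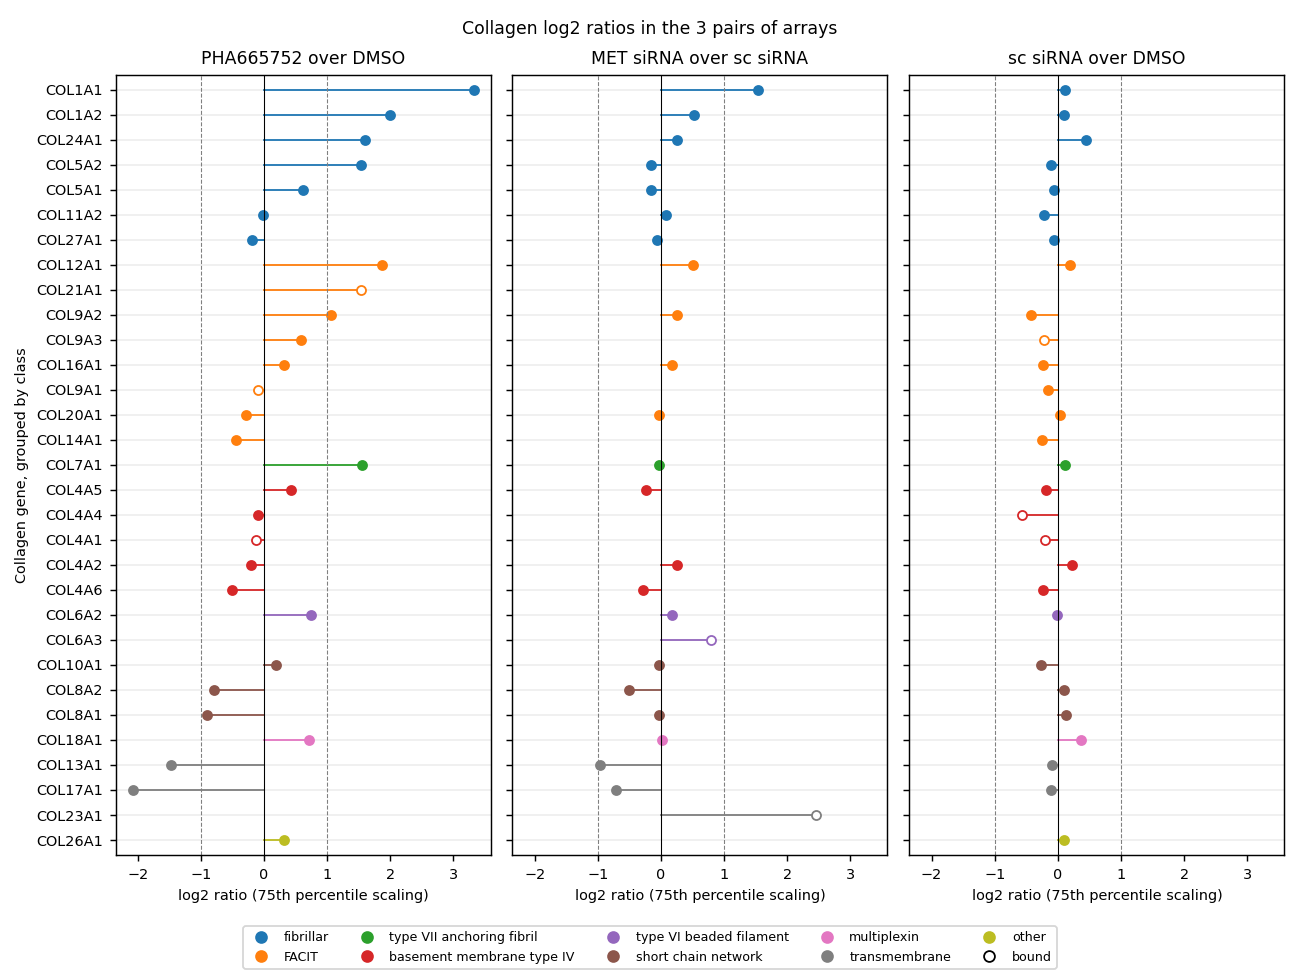
Log2 ratios (75th percentile scaling) of collagen genes in the 3 pairs of arrays, grouped and coloured by class, with dashed lines at 2-fold. Open circles are bounds. With PHA665752 the fibrillar genes reach 3.32 and the transmembrane genes -2.08, and the controls (right panel) stay within 2-fold.

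Type I collagen, the main collagen of bone, skin and scar, gave the clearest values. The probe for COL1A1, its alpha 1 chain (A_33_P3304668, NM_000088), read 771 under DMSO, 6631 under PHA665752, 696 under sc siRNA and 2098 under MET siRNA. The controls were alike and both treated arrays were above them. COL1A1 was 9.97-fold higher with PHA665752 (log2 ratio 3.32, the 30th highest of 14322 genes) and 2.92-fold higher with MET siRNA (1.54, the 102nd highest of 13647 genes), while the controls differed by 0.11. Under 10 alternative treatments of the data, the inhibitor ratio of COL1A1 ranged from 3.07 to 3.38 and the siRNA ratio from 1.24 to 1.56.

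COL1A2, the alpha 2 chain that joins alpha 1 in the type I trimer, was spotted 10 times on each array (A_24_P277934, NM_000089). Its signal was 1216 under DMSO, 4182 under PHA665752, 1095 under sc siRNA and 1624 under MET siRNA, the same order of arrays as for COL1A1. The PHA665752 array was 3.99-fold higher (log2 ratio 2.0, and from 1.75 to 2.08 under the alternatives). The MET siRNA ratio of 0.52 was short of 2-fold, and the control ratio was 0.10. The log2 SD between its spots lay between 0.028 and 0.052. Both chains of type I were thus higher with PHA665752, by unequal amounts.

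Type V collagen, which starts type I fibrils and limits their width, had 1 of its 3 chains called. COL5A2 (A_23_P33196) read 72.8 under DMSO, 182 under PHA665752, 56.9 under sc siRNA and 52.4 under MET siRNA. It rose 2.89-fold with PHA665752 (1.53), and its MET siRNA ratio of -0.16 had the opposite sign, as it did not with plain background subtraction (0.055). COL5A1 (A_33_P3629678), whose signals were 1169, 1539, 937 and 866 in the same order of arrays, stayed short of 2-fold with PHA665752 (0.61) and with MET siRNA (-0.16). Its second probe read 0.91 and -0.059. COL5A3 was not detected. COL3A1, the gene next to COL5A2 on its chromosome, was not detected either.

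Among the minor fibrillar collagens, COL24A1 (A_23_P74701), an embryonic bone and eye collagen, read 24.7 under DMSO, 64.7 under PHA665752, 28.3 under sc siRNA and 34.7 under MET siRNA. It rose 3.04-fold with PHA665752 (1.60), and its ratio was 0.25 with MET siRNA and 0.45 between controls. COL27A1 showed no such rise, with ratios of -0.19 and -0.056. The 3 probes of COL11A2, a cartilage fibril chain, disagreed. Its brightest probe, which carries another transcript accession (NM_001163771), read -0.019 with PHA665752, and the other 2 probes (both NM_080680) read 1.36 each. The median over the 7 fibrillar genes with a ratio was 1.53 with PHA665752, and it was 0.35 when the 4 undetected genes were kept at their background signals. With MET siRNA the median was 0.073, and it was -0.23 when arrays were scaled to the median of probes well above background.

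FACIT collagens had 3 of their 8 ratios past 2-fold with PHA665752, all of them rises, where 13.1% of all genes were called higher. Of these, COL12A1 stayed past 2-fold in 10 of 10 alternatives, COL9A2 in 6 of 10 and the bound of COL21A1 in 8 of 9. COL12A1, which binds type I fibrils, read 54.4 under DMSO, 171 under PHA665752, 51.9 under sc siRNA and 76.5 under MET siRNA by the probe A_33_P3231953. This was 3.64-fold higher with PHA665752 (1.86), with ratios of 0.51 for MET siRNA and 0.18 for the controls. Its brighter probe had an outlier mark on the DMSO array and gave 0.54 with MET siRNA. COL9A2 (A_23_P45786), a chain of the cartilage FACIT type IX, read 57.5, 104, 36.1 and 44.2 in the same order, 2.09-fold higher with PHA665752 (1.07). The DMSO and sc siRNA signals of COL9A2 differed by -0.42. COL21A1 (A_23_P31124), a FACIT of vessel walls, read 7.31, 27.0, 7.62 and 9.07, was detected with PHA665752 only, and was at least 2.89-fold higher.

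No other FACIT collagen was called by its representing probe, and COL19A1 and COL22A1 had no ratio. COL9A3 read 0.59 with PHA665752, COL16A1 0.32, COL20A1 -0.28 and COL14A1 -0.44, and COL9A1 was detected with DMSO but not with PHA665752, a bound of -0.095. COL16A1 and COL20A1 each had a dimmer second probe that differed, a bound of 1.48 for COL16A1 and 0.86 for COL20A1. The FACIT median was 0.45 with PHA665752, between 0.21 and 0.75 over the other ways of processing.

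COL7A1, the anchoring fibril collagen that basal epithelial cells and fibroblasts secrete, rose with the inhibitor. Its probe A_23_P144071 read 422 under DMSO, 1061 under PHA665752, 381 under sc siRNA and 387 under MET siRNA. The 3 arrays without PHA665752 lay close together. The rise with PHA665752 was 2.92-fold (1.55), and the MET siRNA ratio was -0.025. Whether the inhibitor and siRNA effects on COL7A1 differ could not be tested.

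The sequence before the start of 3 genes that rose is shown here, so that it can be read beside that of the genes that fell, printed further on. These are the genes that rose with PHA665752 and have a single start in the table. No promoter window was available for COL1A1, COL1A2 or COL5A2, which also rose, and COL21A1 and COL24A1 have several starts. RefSeq gives, on GRCh38.p14, the 250 bases upstream of COL7A1 (chr3:48595330-48595579, minus strand), COL9A2 (chr1:40317287-40317536, minus strand) and COL12A1 (chr6:75206054-75206303, minus strand). Capitals mark matches on either strand to the GC box GGGCGG, the CCAAT box, the TATA box TATAAA, an AP-1 site TGANTCA or an ETS site CCGGAAG. Where matches overlap, all are in capitals.
COL7A1: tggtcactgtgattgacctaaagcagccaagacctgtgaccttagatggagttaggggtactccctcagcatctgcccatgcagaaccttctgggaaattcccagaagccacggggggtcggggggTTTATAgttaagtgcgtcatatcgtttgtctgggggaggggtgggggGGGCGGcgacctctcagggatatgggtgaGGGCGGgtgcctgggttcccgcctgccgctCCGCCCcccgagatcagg
COL9A2: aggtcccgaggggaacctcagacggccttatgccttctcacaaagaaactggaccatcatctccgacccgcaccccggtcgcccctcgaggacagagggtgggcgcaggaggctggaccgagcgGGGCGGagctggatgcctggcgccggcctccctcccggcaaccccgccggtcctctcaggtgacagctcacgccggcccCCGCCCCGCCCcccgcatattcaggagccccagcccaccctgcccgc
COL12A1: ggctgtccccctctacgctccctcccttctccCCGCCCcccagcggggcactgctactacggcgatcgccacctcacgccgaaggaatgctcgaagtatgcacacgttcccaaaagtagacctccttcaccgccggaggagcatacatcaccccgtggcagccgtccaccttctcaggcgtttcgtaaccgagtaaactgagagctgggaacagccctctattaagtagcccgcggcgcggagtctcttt
COL7A1 held 3 GC boxes and 1 TATA box match, COL9A2 3 GC boxes and COL12A1 1 GC box. Matches were counted in the 250 bases upstream of the start in each promoter window of the table. The GC box was found in 42.6% of 35116 windows and in 54.5% of the 44 windows of 32 collagen genes. The AP-1 site was found in 6.57% of all windows and 2.27% of collagen windows, and the ETS site in 8.52% and 0%. These are letter matches and not measured binding.

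No basement membrane type IV collagen was called in any pair, with ratios for 5 of 6 genes with PHA665752 and for 3 of 6 with MET siRNA. Without a filter on dim probes, COL4A1 and COL4A4 were called lower with MET siRNA. COL4A5 (A_23_P45365), a chain of kidney and skin basement membranes, had signals of 926 under DMSO, 1073 under PHA665752, 681 under sc siRNA and 598 under MET siRNA, with ratios of 0.43 for PHA665752 and -0.24 for MET siRNA. Its neighbour COL4A6 read -0.51 and -0.28. COL4A2, one of the chains of the common type IV trimer, read 255, 189, 250.2 and 308, with ratios of -0.21 and 0.25, and the latter was -0.048 when arrays were scaled to the median of probes well above background. COL4A1, its partner in that trimer, was above background with DMSO only (16.9, against 13.3, 12.3 and 4.5). COL4A4 was above background with DMSO and PHA665752, with a ratio of -0.091. The type IV median with PHA665752 was -0.13.

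COL4A1 and COL4A2 lie head to head, and the 126 bases between their starts serve both. They are shown because the array detected COL4A2 on all 4 arrays and COL4A1 with DMSO only, by probes whose brightness is not comparable.
COL4A1-COL4A2: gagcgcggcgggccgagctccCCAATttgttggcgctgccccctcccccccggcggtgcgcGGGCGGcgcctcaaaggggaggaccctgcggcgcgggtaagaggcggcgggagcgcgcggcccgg
The run is chr13:110307158-110307283 of GRCh38.p14, plus strand, toward COL4A2, with 1 CCAAT box and 1 GC box in capitals. The cause of the unequal detection was not tested.

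Type VI collagen forms beaded filaments around cells. COL6A1 (A_32_P32254, NM_001848) was among the brightest collagen probes, with 11772 with DMSO, 10576 with sc siRNA and 11474 with MET siRNA, and ratios of 0.071 for MET siRNA and 0.098 for the controls. With PHA665752 its spot carried a background outlier mark, and with the mark ignored it read 12721, a ratio of 0.32. COL6A2, its trimer partner and neighbour, read 0.74 with PHA665752 and 0.18 with MET siRNA, and its second probe read 0.80 and 0.12. COL6A3, the third chain, was above background with MET siRNA only (18.4, against 2.27 with DMSO, 2.52 with PHA665752 and 2.11 with sc siRNA), a bound of 0.80.

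The short chain collagens form hexagonal networks under endothelium and in cartilage. COL8A1 (A_23_P69030) read 1001 under DMSO, 463 under PHA665752, 914 under sc siRNA and 926 under MET siRNA. The PHA665752 array was the low one, at -0.90, short of 2-fold here and past it (-1.14) with 50th percentile scaling. COL8A2, its partner, read -0.80 with PHA665752 and -0.50 with MET siRNA by its brightest probe. A second probe of COL8A2 was detected with MET siRNA only (37.5), a bound of 1.83 in the opposite direction. COL10A1, the collagen of hypertrophic cartilage, read 0.20 and -0.034. Of the remaining classes, COL18A1, the source of endostatin, read 0.72 with PHA665752, 0.013 with MET siRNA and 0.37 between controls, and COL26A1 read 0.31 with PHA665752.

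Both transmembrane collagens detected on all 4 arrays fell with PHA665752. COL17A1 (A_23_P501010, NM_000494), the hemidesmosome collagen that ties basal epithelial cells to their basement membrane, read 451 under DMSO, 91.9 under PHA665752, 349 under sc siRNA and 221 under MET siRNA. It fell 4.23-fold with PHA665752 (-2.08, the 228th lowest of 14322 genes) and its ratio with MET siRNA was -0.71, short of 2-fold and the 240th lowest of 13647 genes. Both treated arrays were below both controls, which differed by -0.12. COL13A1 (A_23_P1331, NM_080801), a collagen of cell junctions that was spotted 10 times, read 709, 221, 559.9 and 296 in the same order. It fell 2.77-fold with PHA665752 (-1.47) and its ratio with MET siRNA of -0.97 was the 105th lowest. With arrays scaled to the median of probes well above background, the MET siRNA ratios were -1.01 for COL17A1 and -1.27 for COL13A1.

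COL23A1 (A_23_P387031), another transmembrane collagen, was detected with MET siRNA only, at 57.9, against 8.29 with DMSO, 10.4 with PHA665752 and 8.99 with sc siRNA. It was at least 5.48-fold higher than with sc siRNA (2.45). Together with COL6A3 and the second probe of COL8A2, it makes 3 collagen probes, of 56, seen on the MET siRNA array alone. Over the whole array of 34127 probes, 207 were seen with MET siRNA alone, 415 with DMSO, 656 with PHA665752 and 486 with sc siRNA. COL21A1 and the second probe of COL16A1 were seen with PHA665752 alone, and COL4A1 with DMSO alone. The lowest signal well above background was 17.4 on the MET siRNA array and 10.2 to 12.3 on the others. Whether the signals seen with MET siRNA alone come from the knockdown or from the array was not tested.

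Both genes that fell lie on chromosome 10. The 250 bases before their starts are printed here to set beside those of COL7A1, COL9A2 and COL12A1. They are chr10:104085881-104086130 for COL17A1 (minus strand) and chr10:69801656-69801905 for COL13A1 (plus strand) of GRCh38.p14 from RefSeq, with capitals as before.
COL17A1: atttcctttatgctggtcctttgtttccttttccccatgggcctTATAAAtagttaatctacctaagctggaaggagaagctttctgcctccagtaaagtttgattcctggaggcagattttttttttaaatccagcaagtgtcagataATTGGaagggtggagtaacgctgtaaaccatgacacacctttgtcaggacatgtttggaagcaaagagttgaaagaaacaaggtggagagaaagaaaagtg
COL13A1: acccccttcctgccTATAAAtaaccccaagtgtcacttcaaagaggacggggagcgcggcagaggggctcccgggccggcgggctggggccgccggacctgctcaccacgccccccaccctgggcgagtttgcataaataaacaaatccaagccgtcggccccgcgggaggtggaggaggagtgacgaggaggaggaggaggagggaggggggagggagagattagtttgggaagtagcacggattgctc
Each held 1 match to the TATA box letters, toward the end of the run farthest from the start. COL17A1 also held 1 CCAAT box, and neither held a GC box. The TATA box letters were found in 10.7% of all windows and 18.2% of collagen windows, and the CCAAT box in 32% and 27.3%. COL7A1, which rose, also held a TATA box match, on the opposite strand near the middle of its run. These letters were thus found on genes of both directions, and whether any of them acts as a TATA box was not tested.

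The inhibitor and siRNA pairs share no array, so their ratios were set side by side. Over the 22 collagen genes measured in both, 15 (68.2%) had the same sign, beside 69.6% of 13440 genes, and the PHA665752 ratio was larger in size in 20 (90.9%), beside 80.2% of all genes. Pearson's r across these genes was 0.83 and Spearman's rho 0.70, beside 0.52 and 0.54 over all genes, and without COL1A1 they were 0.76 and 0.66. These are descriptions across genes of 4 arrays on 1 slide, and genes are not independent replicates. Of the collagens called higher with PHA665752, COL1A1 (1.54), COL1A2 (0.52), COL12A1 (0.51), COL24A1 (0.25) and COL9A2 (0.25) had the same sign with MET siRNA. So did COL13A1 (-0.97) and COL17A1 (-0.71), which fell. COL5A2 and COL7A1 had the opposite sign, and COL21A1 had no MET siRNA ratio. The share of same signs among all genes called with PHA665752 was not computed. COL8A2 was short of 2-fold in both pairs (-0.80 and -0.50). Under the alternatives its MET siRNA ratio ranged from -0.80 to 0.66, and its PHA665752 ratio reached -0.044. Its second probe gave a bound of 1.83 with MET siRNA. The MET siRNA ratios of COL1A2 and COL12A1 fell to 0.22 and 0.13. COL5A2 and COL7A1 rose with PHA665752 with MET siRNA ratios of -0.16 and -0.025.

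**Figure D3:**
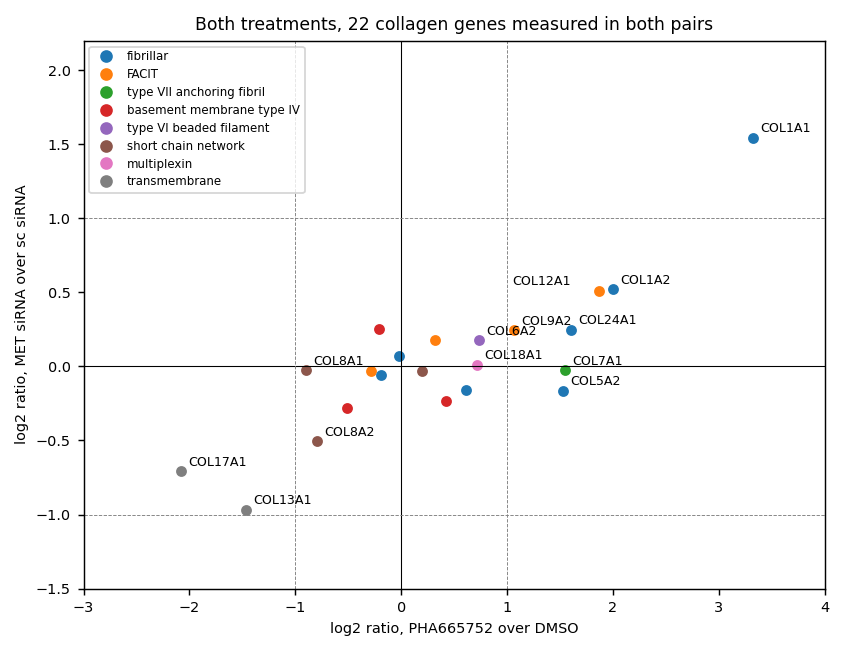
Log2 ratio of MET siRNA over sc siRNA (vertical) against that of PHA665752 over DMSO (horizontal) for the 22 collagen genes measured in both pairs, coloured by class, with dashed lines at 2-fold. COL1A1 (3.32 and 1.54) lies at the upper right and COL17A1 (-2.08 and -0.71) and COL13A1 (-1.47 and -0.97) at the lower left.

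Among the collagens with the brightest probes on the control arrays, the 5 in front by mean normalized signal were COL6A1, COL1A2, COL5A1, COL8A1 and COL4A5. Their direction with PHA665752 was not shared. COL1A2 rose, COL5A1 and COL4A5 had ratios of 0.61 and 0.43, COL8A1 had -0.90, and COL6A1 had a value with its mark ignored only (0.32).

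Over 10 other ways of processing, COL1A1, COL1A2, COL7A1, COL12A1, COL13A1 and COL17A1 stayed past 2-fold with PHA665752 in each. The COL12A1 ratio lay between 1.22 and 1.91, that of COL13A1 between -1.72 and -1.21, and that of COL17A1 between -2.33 and -1.47. With normexp background correction and an offset of 50, which pulls dim ratios toward 0, COL5A2 read 0.94, COL24A1 0.68, COL9A2 0.68 and the bound of COL21A1 0.59. So 4 collagen genes remained called higher, where 6.73% of all genes were. COL9A2 was also short of 2-fold with 50th percentile scaling, with scaling to the median of probes well above background and with quantile normalization.

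**Figure D4:**
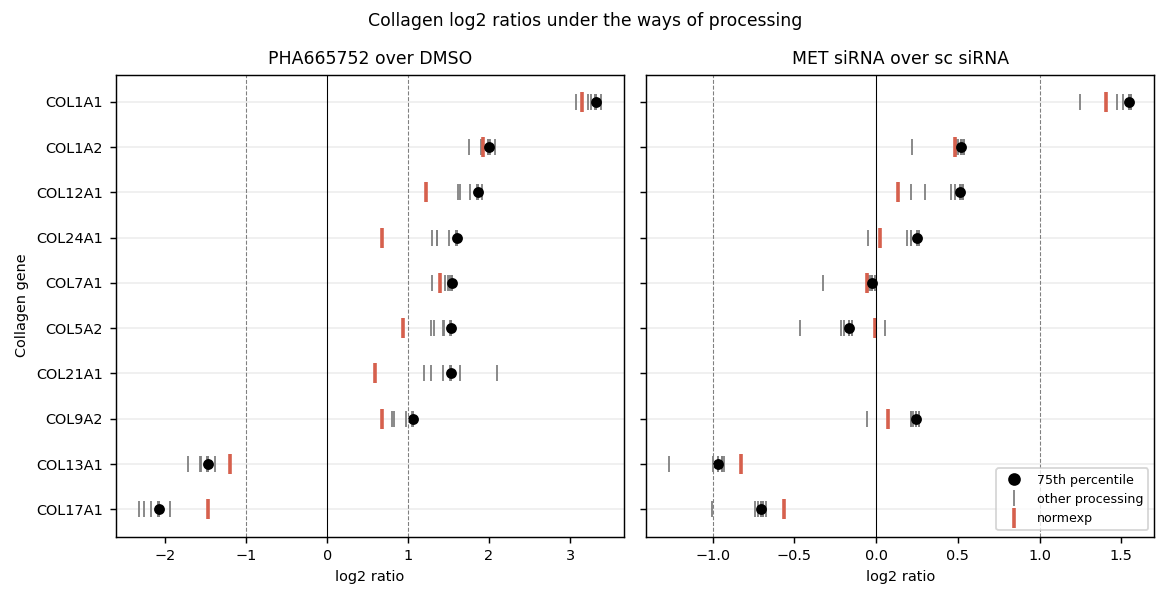
Log2 ratios of the 10 collagen genes past 2-fold with PHA665752 under the ways of processing, for the inhibitor (left) and the siRNA (right). Black points are the 75th percentile values, grey marks the other ways, and red marks normexp. COL1A1 stays between 3.07 and 3.38 at left, and COL9A2 falls to 0.68 with normexp.

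Collagen needs enzymes, chaperones and crosslinkers, and it is bound by receptors and cut by proteases. Of 68 such genes in 7 lists, 66 were measured, without TGFBI and ITGA11. With PHA665752, 11 of 55 with a ratio were higher past 2-fold and 7 lower, where 13.1% and 8.04% of all genes were, with a median of 0.15 beside 0.075 for all genes, which was -0.091 with 50th percentile scaling. With MET siRNA, 1 of 54 was higher and 1 lower, where 2.04% and 0.696% of all genes were, with a median of -0.036. Between the controls, 5 of 57 were higher and 1 lower, where 2.89% and 1.16% of all genes were, so genes of these lists also passed 2-fold without MET treatment. Of the calls with PHA665752 named below, those of P3H2, PCOLCE2, LOXL4, FN1, SPARC, ITGA2, MMP1 and MMP14 held in 10 of 10 alternatives. The other calls with PHA665752 held in 6 to 9, with CTSK in 6 and CREB3L1 and LOXL3 in 7. The LOXL3 ratio was as low as 0.51.

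In the endoplasmic reticulum, most of the machinery stayed within 2-fold. Of 14 hydroxylases and glycosyltransferases, P3H2, a prolyl 3-hydroxylase, fell with PHA665752 (1635 to 652, -1.11), and COLGALT2, which adds galactose to hydroxylysine, rose (13.1 to 37.6, 1.73) but was also 1.36 higher between the controls. Of 12 folding and export genes, CREB3L1, a transcription factor for type I collagen in osteoblasts, rose (3142 to 5761, 1.09). Its MET siRNA ratio was 0.42. The medians of these lists with PHA665752 were 0.17 and 0.34.

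Outside the cell, propeptide removal genes were split. BMP1, the protease that cuts the C-terminal propeptide, rose with PHA665752 (59.2 to 135, 1.40), and its enhancer PCOLCE rose (5779.8 to 10275, 1.04), while the related PCOLCE2 fell (1047 to 397, -1.18). Among the crosslinking lysyl oxidases, LOXL4 rose with PHA665752 (55.7 to 279, 2.54) and with MET siRNA (22.4 to 79.4, 1.78), and its sc siRNA signal was lower than that of DMSO (-1.06). LOX fell with PHA665752 (21625 to 9163, -1.02) and LOXL3 rose (19.7 to 39.4, 1.22).

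Of the glycoproteins and proteoglycans that bind fibrils, 3 of 5 with a ratio rose with PHA665752, where 13.1% of all genes did, and 4 of the 10 measured were above background on no array. FN1, the fibronectin on which fibrils assemble, went from 1061 to 3564 (1.96), DCN, the fibril-binding proteoglycan decorin, from 26.1 to 72.7 (1.69), and SPARC, a collagen-binding glycoprotein, from 3024 to 6559 (1.33). Their MET siRNA ratios were 0.48, 0.79 and 0.12. DCN is also among the fibroblast markers.

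Receptors and proteases held the largest falls of these lists with PHA665752. ITGA2, the alpha chain of the main epithelial collagen integrin, fell with PHA665752 (208 to 30.1, -2.58), and its MET siRNA ratio of -1.0 was just short of 2-fold. The probes of the collagen receptor kinases moved apart, as DDR1 rose (564 to 1129, 1.22) and DDR2 fell (34.1 to 13.8, -1.09). The DDR2 signal with PHA665752 lay near the lowest detected signal of that array (12.3). Its ratio lay between -1.43 and -0.16 under the alternatives. MMP1, the collagenase of type I collagen, fell with PHA665752 (32568 to 3766, -2.90), read -0.81 with MET siRNA, and was 1.12 higher with sc siRNA than with DMSO. MMP14, a membrane-bound collagenase, fell with PHA665752 (19912 to 5474, -1.65), and CTSK, a lysosomal collagenase, rose (369 to 649, 1.03). MMP2, the gelatinase, was above background with sc siRNA only (36.5).

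**Figure D5:**
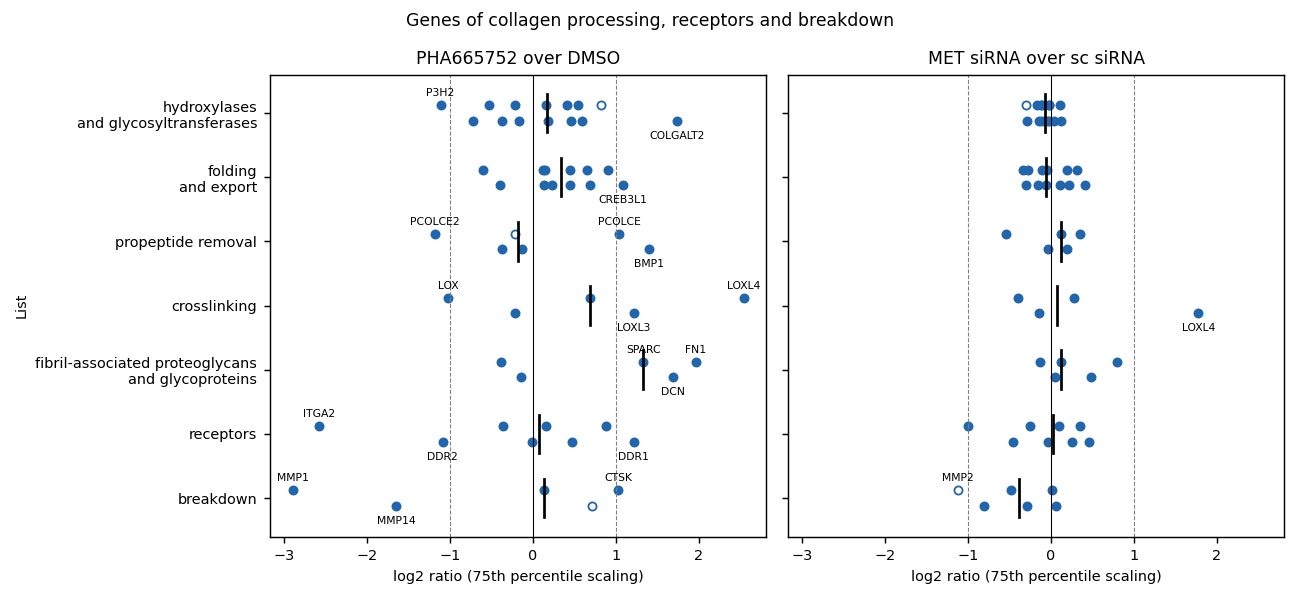
Log2 ratios (75th percentile scaling) of the genes of 7 lists on collagen processing, receptors and breakdown, for PHA665752 over DMSO (left) and MET siRNA over sc siRNA (right). Each point is a gene, open circles are bounds, black bars are list medians, and dashed lines mark 2-fold. LOXL4 (2.54) lies farthest right at left, and MMP1 (-2.90) and ITGA2 (-2.58) farthest left.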

How the data were processed

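Hs746T total RNA was measured on 4 single-colour Agilent arrays, 1 per condition. The authors deposited Feature Extraction output (version 11.5.1.1 per the file headers), whose processed signal is a background-subtracted linear intensity per spot, not normalized between arrays. No spot was saturated. Spots marked as outliers were left out, the spots of a probe were averaged as log2, and the 75th percentile of each array was subtracted. Probes were named by RefSeq accession (GRCh38.p14). The files use another build, so the only coordinates given are those of the RefSeq promoters. For a bound, the dim array was given the higher of its own signal and its lowest signal above background. Named were collagens past 2-fold in any pair, the 5 brightest, their trimer partners, and at most 4 genes past 2-fold per list. COL11A2, COL16A1 and COL20A1 second probes and the genes short of 2-fold were given to account for every member. Members and lists were chosen with earlier results of these data known. The code for ratios and bounds was tested on simulated data. Alternatives were the 50th percentile, the median of probes above background, quantile normalization, normexp, plain subtraction, other filters on dim probes, outlier marks ignored, the median over probes, and the deposited series matrix. The series matrix equals the processed signal within 0.05 for the 33128 probes spotted once. The paper's own fold changes were not used. Quantile normalization and normexp used limma 3.58.1 in R 4.3.3, and all else Python 3.11.15 with pandas 2.3.3 and numpy 2.4.6. The number of arrays limits the precision.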

Additional observations from a re-analysis of the deposited data

Results flagged for a closer look

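For 4 genes of fibrils and basement membranes, COL5A2, COL5A1, COL4A5 and COL4A2, the ratios had opposite signs in the inhibitor and siRNA pairs. Each ratio was larger than 2 times the spot noise, which does not cover differences between cultures. The ratios with PHA665752 and MET siRNA were 1.53 and -0.16 for COL5A2, 0.61 and -0.16 for COL5A1, 0.43 and -0.24 for COL4A5, and -0.21 and 0.25 for COL4A2. The MET siRNA ratio turned to 0.055 for COL5A2 with plain background subtraction and to -0.048 for COL4A2 with scaling to the median of probes above background, which ended the opposite signs. The MET siRNA ratio of COL5A1 was -0.059 by its second probe and as small as -0.11 under the alternatives, both within 2 times the spot noise. With 1 array per condition, the difference between the pairs was not tested. The brighter COL12A1 probe (A_23_P214168), left out of the comparison with PHA665752 because its DMSO spot was marked as an outlier, gave a ratio of 2.07 over DMSO when the mark was ignored, from signals of 863.7 and 3150.3.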

How the results depend on the processing

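No paired analysis was possible because each condition has 1 array, and for the same reason no array could be left out in turn. Among the recomputed counts and medians, 152 stayed within 1.5 times the first count or within the spot noise, and 36 moved. The 8 collagen rises with PHA665752 became 4 with normexp, where 6.73% of all genes were higher. The 2 falls became 4 with 50th percentile scaling, which added COL8A1 and COL8A2, where 12.3% of all genes were lower. The collagen median with PHA665752 of 0.31 became 0.068 (50th percentile), 0.22 (median of probes above background), -0.047 (quantile) and 0.43 (median over probes). With MET siRNA the 2 rises became 1 with normexp and 1 with only probes above background on both arrays, which lost COL23A1. The 0 falls became 2 with the median of probes above background (COL13A1 and COL17A1) and 3 with no filter on dim probes (COL4A1, COL4A4 and COL15A1). The collagen median with MET siRNA of -0.0062 became -0.29 (median of probes above background), 0.078 (plain subtraction) and 0.12 (no filter). The control median of -0.076 became -0.17 (50th percentile), 0.068 (normexp), 0.028 (plain subtraction) and 0.024 (no filter). For the processing lists with PHA665752, 11 rises became 6 (50th percentile) and 5 (normexp), and the median of 0.15 became -0.091 (50th percentile), 0.060 (median of probes above background), 0.24 (quantile) and 0.26 (no filter). With MET siRNA, 1 rise became 0 (normexp) and 2 (no filter), and 1 fall became 2 (50th percentile), 3 (median of probes above background), 2 (quantile), 0 (normexp) and 0 (both arrays above background), with a median of -0.34 (median of probes above background) in place of -0.036. Between controls, 5 rises became 1 (normexp) and 2 (both arrays above background), 1 fall became 0 (normexp) and 0 (plain subtraction), and the median of 0.027 became -0.072 (50th percentile). The cause of these moves was not tested. The 50th percentile lowered all gene ratios of the PHA665752 pair by 0.25 at the median, so that higher calls were 42.5% of all calls in place of 62%, and the median of probes above background lowered those of the MET siRNA pair by 0.30 and took the share from 74.5% to 40.2%. Dim probes have little signal over background, and collagens not detected here may still be transcribed at low levels.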
